A study of Mus musculus with 4 samples.

Results

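The genes described here are 10 that present peptides on MHC class I: the heavy chains H2-K1 and H2-D1, their light chain B2m, the peptide transporter subunits Tap1 and Tap2, the loading factor Tapbp (tapasin), the immunoproteasome subunits Psmb8 and Psmb9, the trimming peptidase Erap1 and the transcriptional coactivator Nlrc5. They were chosen by name, for their place in the pathway, with earlier results of these data known, and make up 10 of the 56748 genes of the count table. All 10 were found and all 10 passed the filter on low counts.

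RNA of lung tissue with 4T1 metastases was sequenced in bulk from 2 saline and 2 ADC/cmLumiOpto samples. All samples were from female BALB/cJ mice, labelled as 7 weeks of age. They carried 4T1-FLuc cells, a luciferase-expressing mouse triple-negative breast cancer line, given through the tail vein. The methods give 7 weeks as the age at this injection, which came before treatment. The saline group received vehicle (labelled as a PBS control), and the ADC/cmLumiOpto group received CD276-DM1, an antibody-drug conjugate of an anti-CD276 antibody with the microtubule inhibitor mertansine, together with cmLumiOpto for 3 weeks. The gene therapy cmLumiOpto delivers, by AAV in exosomes, a light-gated channel that depolarizes cancer cell mitochondria when the luminescent substrate ViviRen is given. Labels and methods differ in places. The labels give 16 mg/kg of the conjugate, write the gene therapy as cmLumi-Olap and name tumor cells harvested from the lung, whereas the methods name a lower dose, cmLumiOpto and dissociated lung tissue. Total counts were between 15263375 and 19675436 per sample, so that the floor of 3 counts corresponded to 0.152 to 0.197 CPM (counts scaled to the size of each library), for counting error only.

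MHC class I molecules display fragments of the proteins a cell makes to CD8 T cells. Proteasomes cut proteins into peptides, TAP carries the peptides into the endoplasmic reticulum, ERAP1 trims them, and tapasin holds an empty heavy chain with β2-microglobulin next to TAP until a peptide binds. Interferon-γ raises most of these genes, and NLRC5 acts on class I promoters together with factors bound at the X and Y boxes of the SXY module. Loss of any step can hide a tumor cell from CD8 T cells, and nearly every nucleated cell of the lung expresses the pathway.

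The promoters of the heavy chains and of B2m are shown because B2m and H2-D1 gave the highest levels and all 3 share a sequence layout. The stretch between Psmb9 and Tap1, neighboring genes read in opposite directions, is shown for their ratio. Among the ratios compared, it differed most between the groups. Promoter sequences of 8 of the 10 genes were found in the RefSeq table of GRCm38.p6, and those of Tap2 and Nlrc5 were not. The first 3 lines give the 250 bases before the start site. The fourth gives the 225 bases between the RefSeq start of Psmb9, which is read to the left, and that of Tap1, which is read to the right. In the gene models of the counts these genes overlap by 212 bases, so the models have no such gap. Capitals mark matches, on either strand, to AANNGAAA (the core bound by interferon regulatory factors), GG and TCCC with 4 bases between them (NF-κB-like), TGACG (site α, bound by CREB and ATF proteins) and ATTGG (the Y box, bound by NF-Y). The sequences are those of the reference strain and were not read from these mice.
H2-K1, chr17:34000348-34000597, minus strand: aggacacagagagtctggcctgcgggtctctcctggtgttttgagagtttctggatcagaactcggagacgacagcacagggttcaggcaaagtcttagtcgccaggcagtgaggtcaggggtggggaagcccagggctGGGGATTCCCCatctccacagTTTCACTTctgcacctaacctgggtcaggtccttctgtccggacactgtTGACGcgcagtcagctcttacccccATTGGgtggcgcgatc
H2-D1, chr17:35262844-35263093, plus strand: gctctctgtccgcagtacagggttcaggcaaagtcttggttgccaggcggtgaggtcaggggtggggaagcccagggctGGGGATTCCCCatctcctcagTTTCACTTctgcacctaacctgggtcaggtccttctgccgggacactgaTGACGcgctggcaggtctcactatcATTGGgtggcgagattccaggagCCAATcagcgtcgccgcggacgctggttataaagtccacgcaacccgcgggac
B2m, chr2:122147437-122147686, plus strand: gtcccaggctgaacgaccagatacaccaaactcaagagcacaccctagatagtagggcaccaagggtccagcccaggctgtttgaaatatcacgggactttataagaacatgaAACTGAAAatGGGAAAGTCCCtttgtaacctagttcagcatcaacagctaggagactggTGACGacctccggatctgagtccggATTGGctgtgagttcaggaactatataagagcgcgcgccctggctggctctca
Between Psmb9 and Tap1, chr17:34187331-34187555, plus strand: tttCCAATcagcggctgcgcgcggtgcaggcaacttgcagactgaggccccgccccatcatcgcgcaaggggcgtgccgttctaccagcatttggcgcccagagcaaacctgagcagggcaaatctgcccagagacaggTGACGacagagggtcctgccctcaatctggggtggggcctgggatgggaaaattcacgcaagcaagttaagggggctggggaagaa

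In H2-K1, H2-D1 and B2m alike, TGACG is followed by 20 bases and then ATTGG on the same strand. This spaced pattern was written down after these 3 sequences had been seen, and it occurs in 31 of the 32851 windows of 300 bases in the RefSeq table (0.0944%), which belong to 27 genes and include the class I-like gene H2-M3. The single motifs are common, and each was counted in windows that also hold the 50 bases after the start. AANNGAAA was found in B2m, Erap1, H2-D1 and H2-K1 and in 23.9% of all windows. The NF-κB-like motif was found in B2m, H2-D1 and H2-K1 and in 20.7% of all windows. TGACG was present in 5 of the 8 genes with a window (20.8% of all windows), and ATTGG in 6 of them (37.4%). A match is a description of the letters in these windows, and binding was not measured.

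Levels within each sample were compared per length, as RPKM, the CPM of a gene divided by the length of its gene model in kilobases. For all members but B2m this length exceeds that of the longest reference transcript. It is 3381 against 1907 bases for Psmb8 and 7280 against 5644 bases for Erap1. The order of the genes below holds for the gene model length, and another length could change which genes overlap. In the saline samples B2m was highest at 2266 ± 113 RPKM (mean ± SD, n = 2 here and below), followed by H2-D1 at 848 ± 20.4 RPKM. H2-K1 at 153 ± 21.2 RPKM and Tapbp at 136 ± 23.4 RPKM overlapped in both groups. Psmb8 was at 87.8 ± 9.22 RPKM, below Tapbp in the saline samples and overlapping with it in the ADC/cmLumiOpto samples. Tap1 at 38.6 ± 6.73 RPKM and Psmb9 at 35.2 ± 5.85 RPKM overlapped in both groups, while Tap2 at 24 ± 4.05 RPKM lay below both in the saline samples and overlapped with Tap1 in the ADC/cmLumiOpto samples. By this measure Erap1 at 19.6 ± 1.70 RPKM and Nlrc5 at 7.45 ± 0.33 RPKM were lowest and did not overlap with any other member in either group.

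**Figure D1:**
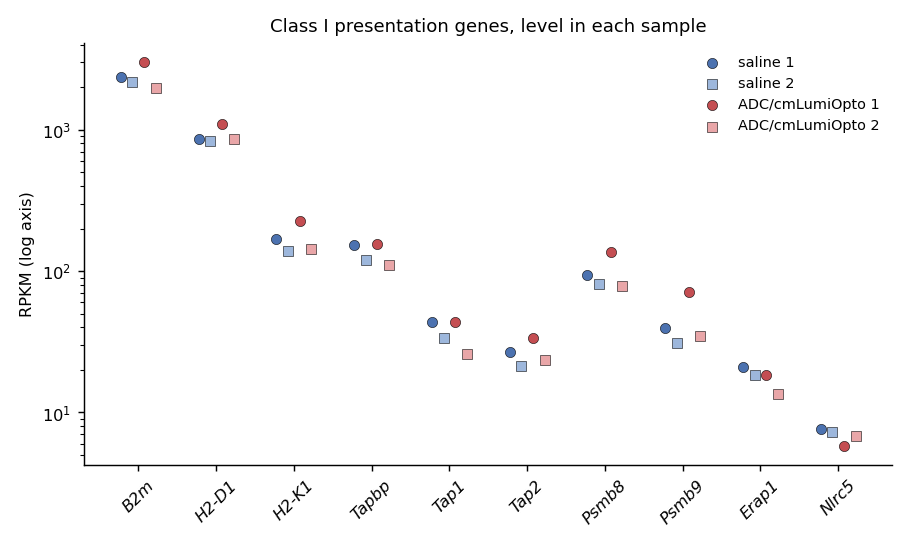
RPKM of the 10 class I presentation genes (log axis) in the 2 saline and 2 ADC/cmLumiOpto samples, 1 point per sample. ADC/cmLumiOpto sample 1 is highest for 8 of the 10 genes, and the groups overlap for 7 of them.

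No member passed the test for a difference between the groups. In the edgeR quasi-likelihood fit over all 15320 tested genes, 0 of the 10 had an adjusted p under 0.05, as did 0% of all tested genes, whose lowest adjusted value was 0.116. Without adjustment, 0 of the 10 members were under 0.05, against 23.2% of all tested genes (11.0% higher and 12.2% lower in the ADC/cmLumiOpto group). DESeq2 called 9.99% of the genes for which it gave an adjusted p, and the edgeR exact test called 7.64%. Neither called a member, and 0 members had an unadjusted p under 0.05 by either. Over the 10 genes the median log2 fold change was 0.18, beside 0.028 over all tested genes, and 6 of 10 were above 0, beside 52.0% of all tested genes. With the trend of each sample's values on gene length removed, the median was 0.019 for the 10 genes and 0.020 for all tested genes. The median size of the log2 fold change, sign ignored, was 0.24 for the 10 genes and 0.36 for all tested genes. A p that misses the threshold does not show equal levels, and the 95% interval of each fold is given below. With 2 samples per group, the p-values rest on the spread between these samples together with spread estimates shared across genes.

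**Figure D2:**
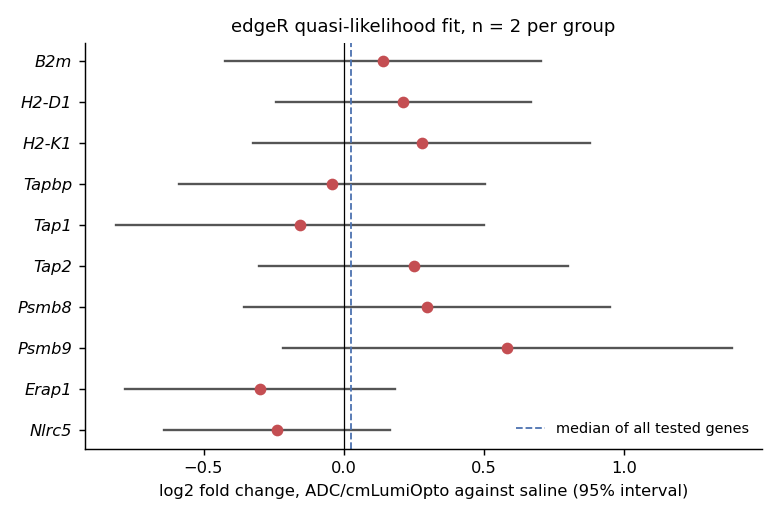
Log2 fold change of each gene, ADC/cmLumiOpto against saline, with its 95% interval from the edgeR quasi-likelihood fit (n = 2 per group); the dashed line is the median of all tested genes. All 10 intervals include 0, and they reach farthest from 0 for Psmb9 (1.38).

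The heavy chains bind the peptide and are read by the T cell receptor. H2-D1 was at 863 and 834 RPKM in the saline samples and at 1102 and 863 RPKM in the ADC/cmLumiOpto samples. It was the only member with both ADC/cmLumiOpto samples above both saline samples, which held for 28.1% of all tested genes, and the second ADC/cmLumiOpto sample exceeded the first saline sample by less than 1 RPKM (863.3 against 862.5). The fold was 1.16 (95% interval 0.845 to 1.59; edgeR quasi-likelihood, adjusted p = 0.531). H2-K1 was at 168 and 138 RPKM in saline and at 228 and 144 RPKM after ADC/cmLumiOpto. Only the first ADC/cmLumiOpto sample lay above both saline samples, and the fold of 1.21 had an interval from 0.799 to 1.84 (edgeR quasi-likelihood, adjusted p = 0.535). In the table's own positions, listed as mm39 in the submitters' processing notes, H2-K1 lies on chromosome 17 at 34214991 to 34219321 and H2-D1 at 35481706 to 35486475.

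Counts of the heavy chains are uncertain between genes. Of the stretches of 50 bases in the longest reference transcript, 14.3% of those of H2-D1 (most often H2-Q1) and 8.11% of those of H2-K1 (most often H2-D1) also occurred in other genes. BALB/c mice carry the H2-d haplotype and a further heavy chain, H2-L, whereas the mouse reference is of the H2-b haplotype. The counts of these 2 genes and of class I-like heavy chains of the H2 region (Q, T and M genes), 15 genes in all, were therefore also summed. The sum came to 60365 and 50496 counts for saline and to 86623 and 74949 for ADC/cmLumiOpto, before adjustment for library size. Its log2 fold change was 0.26 (SE 0.21, 95% interval -0.25 to 0.76; edgeR quasi-likelihood, adjusted p = 0.491). H2-K1 and H2-D1 gave between 71.5% and 75.1% of the sum in every sample.

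B2m encodes β2-microglobulin, without which little heavy chain reaches the cell surface. It was at 2345 and 2186 RPKM in the saline samples and at 3021 and 1976 RPKM in the ADC/cmLumiOpto samples, so that 1 sample of the latter was the highest and the other the lowest of all 4. The fold was 1.10 (95% interval 0.745 to 1.63). Its direction depended on the processing. With the trend of each sample's values on gene length removed, the log2 fold change of B2m, the shortest gene model among the 10 at 860 bases, was -0.20. Across all tested genes the Spearman correlation of log2 fold change and gene length was -0.34, and genes are not independent replicates.

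Tap1 and Tap2 are the 2 subunits of the peptide transporter, and Tapbp links it to the heavy chain. Tap1 was at 43.3 and 33.8 RPKM in saline and at 43.4 and 25.8 RPKM after ADC/cmLumiOpto. Tap2 was at 26.9 and 21.2 RPKM in saline and at 33.6 and 23.6 RPKM after ADC/cmLumiOpto. Tapbp was at 153 and 120 RPKM in saline and at 155 and 110 RPKM after ADC/cmLumiOpto. In each of the 3 genes the groups overlapped, and the first sample of either group was above its second. The fold was 0.897 for Tap1 (95% interval 0.569 to 1.42), 1.19 for Tap2 (0.811 to 1.74) and 0.972 for Tapbp (0.666 to 1.42), with adjusted p of 0.761, 0.545 and 0.933 in the edgeR quasi-likelihood fit. The gene model of Tapbp overlaps that of Zbtb22 on the same strand by 3422 bases, and Zbtb22 had between 698 and 1136 counts, where Tapbp had between 6450 and 9951.

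Psmb8 and Psmb9 are catalytic subunits of the immunoproteasome and lie beside Tap2 and Tap1 in the class II region of chromosome 17. Psmb9 was at 39.3 and 31 RPKM in the saline samples and at 70.6 and 34.8 RPKM in the ADC/cmLumiOpto samples. The first ADC/cmLumiOpto sample was well above the rest, and the second lay between the saline samples. Among the 10 genes Psmb9 had the largest fold, 1.5 (95% interval 0.861 to 2.61; edgeR quasi-likelihood, adjusted p = 0.329). Psmb8 was at 94.3 and 81.3 RPKM in saline and at 137 and 79.0 RPKM after ADC/cmLumiOpto. It had the same order of the 2 ADC/cmLumiOpto samples as Psmb9, with a fold of 1.23 (95% interval 0.782 to 1.93; adjusted p = 0.541 in the same edgeR fit). Without the first ADC/cmLumiOpto sample the log2 fold change was -0.013 for Psmb9 and -0.15 for Psmb8.

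Each inducible subunit takes the place of a constitutive one, so the pairs were compared as ratios of RPKM within each sample. Psmb8 to Psmb5 was 1.67 and 1.45 with saline, against 1.61 and 1.31 with ADC/cmLumiOpto. Psmb9 to Psmb6 was 0.592 and 0.476 in saline and 0.736 and 0.483 after ADC/cmLumiOpto. Psmb10 to Psmb7 was 5.24 and 3.30 in saline and 5.77 and 4.09 after ADC/cmLumiOpto. In none of these 3 pairs did the groups separate (exact permutation test, two-sided, n = 2 per group, p = 0.667 for each, where the smallest p that the design allows is 0.33). The constitutive subunits themselves had log2 fold changes of 0.37 (Psmb5), 0.35 (Psmb6) and -0.077 (Psmb7), and the inducible Psmb10 one of 0.18. Per sample, Psmb6, the partner that Psmb9 displaces, was at 124 and 122 CPM in saline and at 180 and 135 CPM after ADC/cmLumiOpto.

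Ratios between members were formed for 5 pairs chosen after the values had been seen, and the groups separated in 3 of them. Psmb9 to Tap1, the pair whose starts face away from each other in the sequence above, was 0.907 and 0.918 with saline, against 1.63 and 1.35 with ADC/cmLumiOpto. The 2 saline ratios were nearly equal although the levels of both genes differed between these samples, and both ADC/cmLumiOpto ratios were higher. On the log2 scale the difference was 0.70 with a pooled SD of 0.14, and it was between 0.56 and 0.83 with each sample left out. Tap1 to Tap2 was 1.61 and 1.6 in saline and 1.29 and 1.10 after ADC/cmLumiOpto, a log2 difference of -0.43 (pooled SD 0.12, and -0.55 to -0.31 with each sample left out). Psmb8 to Psmb9 was 2.40 and 2.62 in saline and 1.94 and 2.27 after ADC/cmLumiOpto, a log2 difference of -0.26 (pooled SD 0.13). It lay between -0.37 and -0.14 when single samples were omitted, and was smallest in size without ADC/cmLumiOpto sample 1. H2-K1 to H2-D1 (0.166 to 0.207 over the 4 samples) and H2-D1 to B2m (0.365 to 0.437) overlapped between the groups. For the 3 separated pairs the exact permutation p was 0.33, the smallest possible, and as the 5 pairs were chosen on these samples the values are a description. The ratios were not adjusted for the trend on gene length. With that trend removed, the log2 fold change was -0.054 for Tap1, 0.22 for Tap2, 0.54 for Psmb9 and 0.24 for Psmb8. In the edgeR quasi-likelihood fit without this step the values were -0.16, 0.25, 0.58 and 0.30. The gene models of Psmb9 and Tap1 overlap by 212 bases on opposite strands, and without a stated strand setting the reads of that stretch cannot be told apart.

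**Figure D3:**
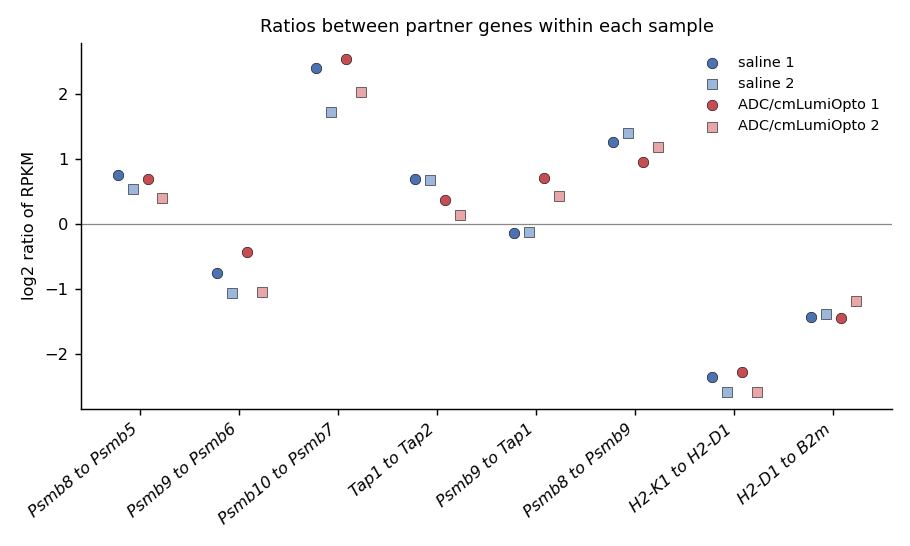
Log2 ratio of RPKM between partner genes, 1 point per sample, for 3 pairs of inducible and constitutive proteasome subunits and 5 pairs of presentation genes chosen after the data were seen. Psmb9 to Tap1 is higher, and Tap1 to Tap2 and Psmb8 to Psmb9 are lower, in both ADC/cmLumiOpto samples than in both saline samples.

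Erap1, which trims the ends of peptides, and Nlrc5, the class I coactivator, were the 2 members with both ADC/cmLumiOpto samples below both saline samples, as were 28.8% of all tested genes. Erap1 was at 20.9 and 18.4 RPKM in saline and at 18.4 and 13.6 RPKM after ADC/cmLumiOpto, with a fold of 0.814 (95% interval 0.583 to 1.14; edgeR quasi-likelihood, adjusted p = 0.403). The higher ADC/cmLumiOpto sample and the lower saline sample were nearly equal. Nlrc5 was at 7.68 and 7.21 RPKM in saline and at 5.79 and 6.84 RPKM after ADC/cmLumiOpto, with a fold of 0.848 (95% interval 0.641 to 1.12; adjusted p = 0.423 in the same edgeR fit). Nlrc5 was lowest in the sample in which 8 of the other members were highest. Erap1 and Nlrc5 have the longest gene models of the members, at 7280 and 8493 bases. With the trend of each sample's values on gene length removed, the log2 fold change of Erap1 moved from -0.30 to -0.12. That of Nlrc5 moved from -0.24 to -0.027. Both genes overlap an antisense neighbor, Cast for Erap1 (834 bases, 2331 to 3180 counts against 1992 to 2428 for Erap1) and 9330175E14Rik for Nlrc5 (748 bases, 91 to 174 counts).

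The levels of the members also differed between the samples of a group. In 9 of 10 genes, Nlrc5 being the exception, the first sample was above the second in both groups, which held for 25% of all tested genes. ADC/cmLumiOpto sample 1 was highest for 8 of 10, against 29.8% of all tested genes. The sample numbers do not mark a shared mouse or day in the labels. With ADC/cmLumiOpto sample 1 left out, 1 of 10 members was above 0, and the median log2 fold change of the 10 was -0.14.

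Markers of other cells differed between the same samples. The summed level of 6 T cell markers (Cd3d, Cd3e, Cd3g, Cd8a, Cd4, Trac) was 40.6 and 15.3 CPM in the saline samples and 84.6 and 36.8 CPM in the ADC/cmLumiOpto samples. All 6 were higher in the first sample than in the second of each group, and 5 of 6 were highest in ADC/cmLumiOpto sample 1, as were 8 of the 10 members. The 4 NK cell markers summed to 3.94 and 3.30 CPM in saline and to 7.42 and 4.34 CPM after ADC/cmLumiOpto. Eomes gave the largest part of this sum and was highest in ADC/cmLumiOpto sample 1 (4.42 CPM), as were Klrb1c and Klre1. The latter had too few counts to be tested. Ncr1 was highest in ADC/cmLumiOpto sample 2 (1.07 CPM, against 0.963 CPM in sample 1). Klrb1c was at 0 in the second saline sample, as was the B cell marker Ms4a1. The 4 general leukocyte markers summed to 624 and 405 CPM in saline and to 759 and 997 CPM after ADC/cmLumiOpto, with 3 of 4 highest in ADC/cmLumiOpto sample 2. The 6 macrophage and monocyte markers summed to 647 and 661 CPM against 562 and 503 CPM. Their directions were mixed, with 3 of 6 above 0 and a median log2 fold change of 0.14. Mrc1 alone was at 212 and 392 CPM against 135 and 171 CPM. The 5 dendritic cell markers summed to 20.3 and 14.0 CPM against 28.2 and 24.3 CPM. Zbtb46 gave the largest part of this sum, with a log2 fold change of -0.22, while 3 of the 4 tested markers were above 0 (median 1.78). The 5 neutrophil markers did not follow the members, at 1092 and 444 CPM in saline and 1110 and 7689 CPM after ADC/cmLumiOpto. The 5 markers of alveolar epithelium were at 1548 and 327 CPM in saline and 5651 and 4847 CPM after ADC/cmLumiOpto, and the 5 fibroblast markers at 5044 and 3461 CPM against 1717 and 1396 CPM. The 6 keratin and epithelial markers that include those of 4T1 cells were within 2476 and 3022 CPM in all samples. Markers of lung cells were thus present in samples labelled as tumor cells, and their part in the levels of the members was not tested. In bulk RNA, fewer cells of a type and less RNA per cell cannot be told apart.

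**Figure D4:**
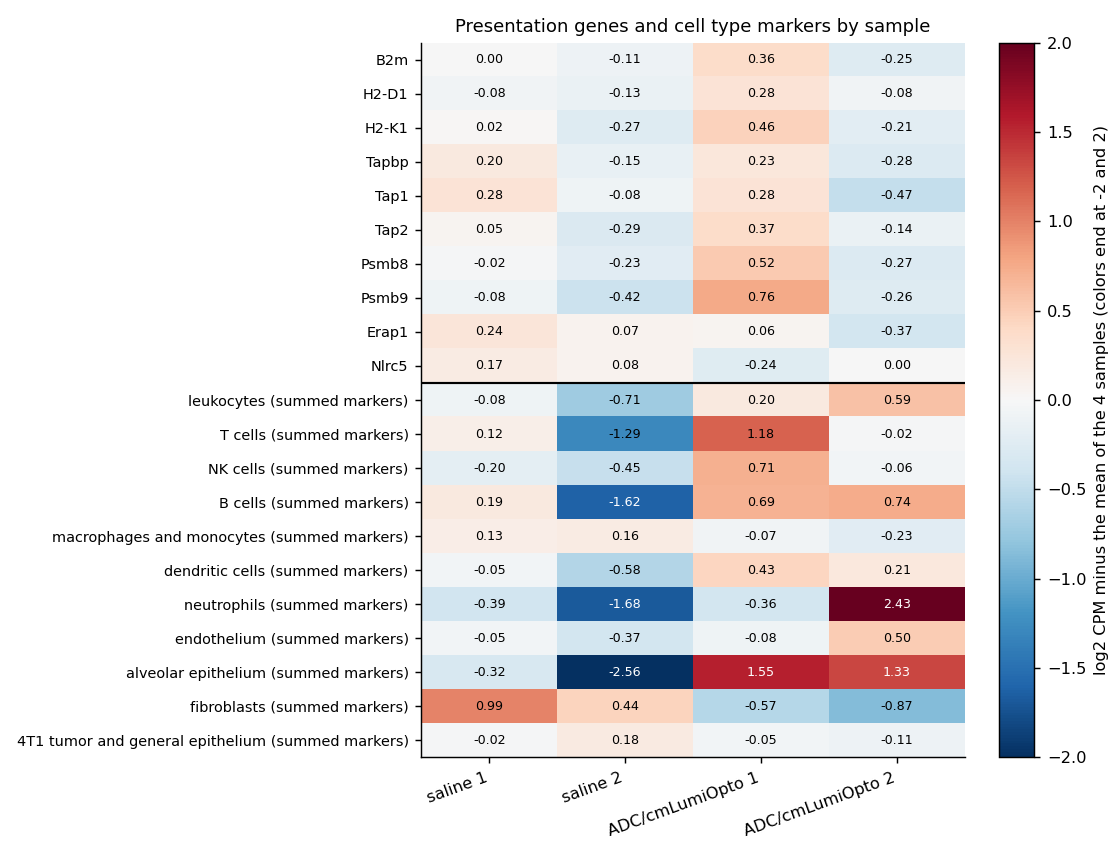
Log2 CPM of each gene, or of the summed markers of a cell type, minus its mean over the 4 samples (colors end at -2 and 2). ADC/cmLumiOpto sample 1 is the highest column for 8 of the 10 genes (0.76 for Psmb9) and for the summed T cell (1.18) and NK cell (0.71) markers, while the neutrophil markers are highest in ADC/cmLumiOpto sample 2 (2.43).

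The other genes of the pathway, in lists by role, likewise held no gene past the edgeR quasi-likelihood threshold, and their counts are to be read beside the 52.0% of all tested genes above 0. Of 15 other tested heavy chains of the class I and class I-like families, 13 were above 0, with a median log2 fold change of 0.27, and 13 were highest in ADC/cmLumiOpto sample 1. Without that sample 7 of the 15 were above 0, and the median was -2.8e-05. H2-T23, which encodes Qa-1, the class I-like molecule read by CD94/NKG2 receptors, was at 247 and 168 CPM in saline and at 455 and 268 CPM after ADC/cmLumiOpto (log2 fold change 0.80, SE 0.30, edgeR adjusted p = 0.186). Both ADC/cmLumiOpto samples were above both saline samples. Mr1, which presents vitamin B metabolites to MAIT cells, was at 25.6 and 26.6 CPM in saline and at 16.8 and 16.6 CPM after ADC/cmLumiOpto (log2 fold change -0.64, SE 0.19, edgeR adjusted p = 0.141), with little spread within either group.

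Of the 20 proteasome subunits, activators and assembly factors, 17 were above 0, with a median of 0.23, and 17 were highest in ADC/cmLumiOpto sample 1. Without that sample 11 of the 20 were above 0 (median 0.029). Psme2, a subunit of the PA28 activator, was at 127 and 120 CPM in saline and at 254 and 145 CPM after ADC/cmLumiOpto (log2 fold change 0.69, SE 0.27). Pomp, the proteasome assembly factor, was at 133 and 145 CPM in saline and at 215 and 152 CPM after ADC/cmLumiOpto (log2 fold change 0.41, SE 0.21). As for Psmb9, the first ADC/cmLumiOpto sample was the highest of the 4 in both genes. Of the 8 folding and loading chaperones, 5 were above 0 (median 0.13), all 8 were highest in ADC/cmLumiOpto sample 1 and lowest in ADC/cmLumiOpto sample 2, and the groups overlapped for each of them. Without ADC/cmLumiOpto sample 1, 0 of the 8 were above 0 (median -0.25). Pdia3 (ERp57), the oxidoreductase of the loading complex, had a log2 fold change of 0.26 (SE 0.26) and Uggt1, the glucosyltransferase that marks unfolded glycoproteins for another round of folding, one of -0.21 (SE 0.20).

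Among 7 tested peptidases, 3 were above 0 (median -0.046), and the median was 0.059 without saline sample 1. Tpp2, a large cytosolic peptidase, was at 115 and 125 CPM in saline and at 71.7 and 81.0 CPM after ADC/cmLumiOpto (log2 fold change -0.65, SE 0.16, edgeR adjusted p = 0.123). Its groups were well separated, and DESeq2 called it (adjusted p = 0.0228). Rnpep, aminopeptidase B, was at 60.3 ± 4.73 CPM in saline and 78.9 ± 0.84 CPM after ADC/cmLumiOpto (log2 fold change 0.39, SE 0.16). Of the 16 transcription regulators, 7 were above 0 (median -0.048), and without saline sample 1 it was 10 (median 0.047). Ezh2, a histone H3 lysine 27 methyltransferase, was at 57.9 ± 2.19 CPM in saline and 42.3 ± 5.08 CPM after ADC/cmLumiOpto (log2 fold change -0.45, SE 0.17, edgeR adjusted p = 0.184). Nfyc, a subunit of the Y box factor NF-Y, had a log2 fold change of -0.36 (SE 0.19). The genes of the other NF-Y subunits, named after their values were seen, had log2 fold changes of 0.36 (Nfya, SE 0.23) and 0.12 (Nfyb, SE 0.21).

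Of the 7 genes of interferon-γ signaling, 5 were above 0 (median 0.14), and 2 of the 6 still tested without ADC/cmLumiOpto sample 1 (median -0.076). The receptor chain gene Ifngr1 was at 106 and 95.4 CPM in saline and at 120 and 167 CPM after ADC/cmLumiOpto (log2 fold change 0.51, SE 0.21), whereas the kinase gene Jak2 was at 421 and 375 CPM in saline and at 295 and 309 CPM after ADC/cmLumiOpto (log2 fold change -0.40, SE 0.16). Neither passed the threshold (edgeR adjusted p = 0.206 and 0.200). Ifng and Irf1 are named after their values were seen. Ifng, the cytokine gene itself, had 5 and 9 counts in saline and 19 and 10 counts after ADC/cmLumiOpto. Irf1, a transcription factor gene induced by interferon-γ, was at 154 and 137 CPM in saline and at 170 and 124 CPM after ADC/cmLumiOpto. As in B2m, the first ADC/cmLumiOpto sample was the highest and the second the lowest of the 4 for Irf1.

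The receptors that recognize class I had the largest median of these lists. All 6 tested genes were above 0, with a median log2 fold change of 1.27 (0.66 without ADC/cmLumiOpto sample 1, with 6 of 6 above 0). Of the 6, 3 had an unadjusted p under 0.05 and were higher, against 11.0% of all tested genes. Pirb, an inhibitory receptor of myeloid cells and B cells, was at 29.1 and 24.9 CPM in saline and at 41.5 and 99.4 CPM after ADC/cmLumiOpto (log2 fold change 1.39, SE 0.39, edgeR adjusted p = 0.132). Its highest level was in the sample with the most neutrophil marker RNA, 7689 CPM. Pirb was called by DESeq2 (adjusted p = 0.00860) and by the exact test (adjusted p = 0.0218). Klrd1 (CD94), the partner of NKG2 receptors on NK and T cells, had 25 and 15 counts in saline and 93 and 48 counts after ADC/cmLumiOpto (log2 fold change 1.55, SE 0.56, edgeR adjusted p = 0.177). Its highest level was in the sample with the highest summed T cell and summed NK cell markers. The list also holds Cd8a and Cd8b1, the CD8 coreceptor genes, of which Cd8a is among the T cell markers above. The part of the marker levels in these changes was not tested.

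**Figure D5:**
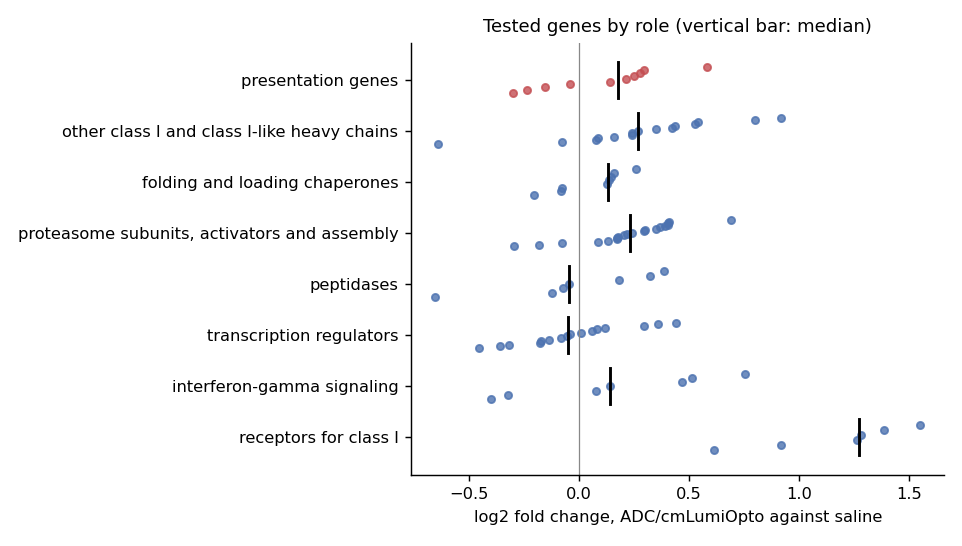
Log2 fold change, ADC/cmLumiOpto against saline, of each tested gene by role in class I presentation, with vertical bars for the medians. The receptors for class I have a median of 1.27, against 0.18 for the 10 presentation genes and -0.048 for the transcription regulators.

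The genes whose pattern was most like the mean of the 10 were found by the Euclidean distance between log2 CPM profiles over the 4 samples, each centered on its own mean. They were Magohb (distance 0.039), Spryd4 (0.042), Nup43 (0.060), Rpap2 (0.063) and Tapbpl (0.064). Tapbpl encodes TAPBPR, a peptide editor of class I molecules and a relative of tapasin, and was at 66.3 and 56.5 CPM in saline and at 82.0 and 53.9 CPM after ADC/cmLumiOpto. Of the members, B2m lay nearest to the mean (0.11, rank 29 of the tested genes), while Psmb9 (0.55, rank 4799) and Nlrc5 (0.64, rank 6501) lay farthest. Over only 4 samples, this likeness is a description.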

How the data were processed

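Bulk RNA of metastatic lung from 2 saline and 2 ADC/cmLumiOpto samples was used. The methods give a larger group size, and further samples were not analysed here. The authors deposited counts, the whole numbers of reads assigned to 56748 genes, without normalization. Reads had been aligned with HISAT2. The counting program and strand setting are not given in the sources used here. The methods name GRCm38 and the submitters' processing notes mm39. The positions in the table differ from GENCODE M21 of GRCm38 for all 10 members, and the promoter sequences are of GRCm38.p6.

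The fit across genes was made by edgeR 4.0.16 in R 4.3.3 (filterByExpr at its defaults, 10 per sample and 15 in total, TMM, glmQLFit and glmQLFTest, two-sided, Benjamini-Hochberg adjustment over 15320 genes, threshold 0.05). The prior count of the log2 fold changes was 0.125. CPM and RPKM were computed from counts with TMM library sizes and the gene length in the table. Simulated data with known changes were used to test the procedure. There the quasi-likelihood test called 73.7% of the genes with a log2 change of 2 in size. It called 19.6% of those with a log2 change of 1, along with 17 unchanged genes.

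The named genes are the 10 members, the 2 tested genes with the smallest p in each list, Psmb5, Psmb6, Psmb7, Psmb10 and the 5 nearest profiles. The symbol Nrdc of the peptidase list was not found in the table. Members and lists were chosen with earlier results of these data known. Alternatives were DESeq2 1.42.0, the exact test, other normalizations and filters, a replicate block, removal of the length trend (lowess span 0.3), summed heavy chains and each sample left out. Some genes of the lists are not reported here.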

Additional observations from a re-analysis of the deposited data

How the results depend on the processing

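No member was called under any alternative, and the smallest adjusted p of a member over all of them was 0.0542 (Psmb9, no filter on low counts; edgeR), the largest 0.996. Of the members' log2 fold changes, 109 kept their direction and 11 did not. These were Tapbp with upper-quartile normalization (0.047), B2m with the length trend removed (-0.20), and 9 with a sample left out. With the length trend removed, the log2 fold changes of H2-D1, Erap1 and Nlrc5 were 0.065, -0.12 and -0.027. With each sample left out, the range was -0.090 to 0.57 for H2-K1, -0.20 to 0.41 for B2m, -0.58 to 0.17 for Tap1, -0.027 to 0.48 for Tap2, -0.31 to 0.18 for Tapbp, -0.15 to 0.63 for Psmb8 and -0.013 to 1.00 for Psmb9, and H2-D1, Erap1 and Nlrc5 kept their direction. The number of members above 0 ranged from 1 to 8, and their median from -0.14 to 0.39, both lowest without ADC/cmLumiOpto sample 1. The log2 difference of the subunit ratios ranged from -0.25 to 0.049 for Psmb8 to Psmb5, from -0.14 to 0.47 for Psmb9 to Psmb6 and from -0.11 to 0.56 for Psmb10 to Psmb7, and that of the added ratios from -0.11 to 0.20 for H2-K1 to H2-D1 and from -0.038 to 0.22 for H2-D1 to B2m. Over all genes the count of calls was 0 in the edgeR quasi-likelihood fit (3553 at an unadjusted p under 0.05), 1353 by DESeq2, 1170 by the exact test, 2259 with no filter on low counts, and 0 to 218 with a sample left out, most without saline sample 1. In the pathway lists DESeq2 called 2 genes (Tpp2 and Pirb), the exact test 1 (Pirb), and the fit with no filter 8 (H2-T23, H2-T24, Psme2, Tpp2, Pirb, Cd8a, Cd8b1 and Klrd1). With each sample left out, an alternative added after the data were seen, the list medians ranged from -2.8e-05 to 0.59 (heavy chains), -0.25 to 0.41 (chaperones), 0.029 to 0.45 (proteasome), -0.033 to 0.059 (peptidases), -0.14 to 0.047 (regulators), -0.076 to 0.34 (interferon-γ signaling) and 0.66 to 1.61 (receptors). The cause of these differences was not tested. With the replicate number as a block, 607 genes and 0 members were called. The labels do not say that a number pairs samples, and the deviations of same-numbered samples from their group means correlated at 0.0985 over 2 pairs, so the block is given here alone. Upper-quartile normalization moved the median of all genes from 0.028 to 0.11. Depth limits Ifng and the NK and B cell markers, which had few counts, and no member.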
